A study of Saccharomyces cerevisiae with 26 samples.

Results

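The genes described here encode the nuclear part of oxidative phosphorylation in Saccharomyces cerevisiae: subunits and assembly factors of complexes II, III and IV and of the ATP synthase. They were chosen by symbol. A gene belonged if its R64 symbol was ATP, COX, QCR, SDH, CYT or RIP followed by a number and at most one letter A or B, and if its identifier was not that of a mitochondrially encoded gene. This rule took 57 of the 7036 genes of the count table, of which 36 encode structural subunits and 21 encode assembly factors. Transcripts (RNA-Seq) and the mRNA pieces that ribosomes shield from nuclease (Ribo-Seq, or footprints) were sequenced from gir2Δ, pub1Δ and wt cells. All strains derived from BY4742, a haploid laboratory strain of mating type alpha that carries the auxotrophic alleles his3delta1, leu2delta0, lys2delta0 and ura3delta0. In gir2Δ the GIR2 gene, and in pub1Δ the PUB1 gene, was replaced by a KanMX cassette; wt was BY4742 itself. How many transformants of each deletion were used is not given in the sources used here. The cultures grew exponentially in YPD, a rich glucose medium, and no other treatment was applied. RNA-Seq had 4 gir2Δ, 5 pub1Δ and 5 wt libraries, Ribo-Seq had 4 of each strain, and both were spread over 4 batches as the labels name them.

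Gir2 is the partner of the GTPase Rbg2 and binds Gcn1, and Pub1 is an RNA-binding protein of U-rich mRNA stretches. Yeast passes electrons from succinate through complex II, and from NADH through single-subunit dehydrogenases, to complex III, cytochrome c and complex IV, and the proton gradient so formed drives the ATP synthase. A few subunits are made in mitochondria, while the rest are imported and joined with the help of assembly factors that insert heme, copper, flavin and iron-sulfur clusters. Cells on glucose mostly ferment, and glucose lowers the transcription of many respiratory genes, which the Hap complex activates through CCAAT boxes. Puf3, an RNA-binding protein, binds the 3′ ends of many mRNAs for mitochondrial proteins.

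Gene-sense counts per library ranged from 2217490 to 3896827 in RNA-Seq and from 540986 to 3123180 in Ribo-Seq. The 57 genes took 0.455% to 0.644% of them in RNA-Seq (10906 to 19436 counts) and 0.476% to 0.661% in Ribo-Seq (3475 to 17506 counts). GIR2 was at 0.342 to 4.75 CPM (counts scaled to a common library size with TMM factors) in gir2Δ RNA-Seq, against 162 to 218 CPM in wt. PUB1 was at 0.287 to 18.9 CPM in pub1Δ RNA-Seq, against 268 to 426 CPM in wt. In both deletion strains the highest of these RNA-Seq values was that of replicate 4, with 16 GIR2 counts in gir2Δ and 47 PUB1 counts in pub1Δ. The genotype label of 1 pub1Δ RNA-Seq library, replicate 1, names gir2 instead, but that library held 894 GIR2 counts and 1 PUB1 count, so it was kept under its strain label. Batch 2 held only gir2Δ and batch 3 only pub1Δ, so a fit with a batch term took the gir2Δ effect from replicate 4, and the pub1Δ effect from replicates 4 and 5 in RNA-Seq and from replicate 4 alone in Ribo-Seq. The labels do not say that replicates were separate cultures, so p-values measure the spread between these libraries, which may be technical. Each library was a bulk culture, in which fewer cells with a transcript and less of it per cell cannot be told apart.

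The CCAAT box was found in most promoters of structural subunit genes, and in a share of assembly factor promoters closer to that of genes in general. The box was searched on both strands from 250 bases before to 50 bases after the start codon, in the RefSeq R64 genome. It was found for 32 of 36 subunit genes (88.9%) and 10 of 21 assembly factor genes (47.6%), against 43.3% of 6002 nuclear protein-coding genes. The longer form ACCAATNA, which contains CCAAT, was found for 14 subunit genes (38.9%) and 2 assembly factor genes (9.52%), against 5.75% of all. All 8 genes of the ATP synthase stalk and membrane sector held a CCAAT. The windows below belong to subunit genes that lay lowest in pub1Δ Ribo-Seq, described further on. There the median log2 change was -0.45 over the 31 tested subunits with a CCAAT and -0.48 over the 3 without. A link between box and change was not tested. Capitals mark the box, as CCAAT or, where it lies on the other strand, as ATTGG.
COX9, position -147, chrIV:334527-334555, minus strand: tactgcaacctgATTGGcccgctaccacg
RIP1, position -247, chrV:107010-107029, plus strand: ggaCCAATcagcgttttgcg
SDH1, position -35, chrXI:171148-171176, minus strand: aaagaaaaaaatCCAATttcatagtacga
SDH4, position -233, chrIV:817705-817733, plus strand: ataagcattgagCCAATcgctgctgtttt
QCR10, position -199, chrVIII:107615-107643, plus strand: cgtgattttgatCCAATtaaaactaaata
COX5A, position -145, chrXIV:531568-531596, plus strand: tcctcgtttgtgATTGGccctacgttttg
Positions count from the start codon, whose A is 1. RIP1 has the longer form, with its box near the far edge of the window. COX4, which belongs to the same group by its level, had none in this window.

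The 3′ side showed the reverse arrangement. TGTANATA, the core of the Puf3 site, was searched on the sense strand in the 250 bases after the stop codon, and it followed 16 of 21 assembly factor genes (76.2%), 7 of 36 subunit genes (19.4%) and 15.2% of all nuclear protein-coding genes. Of the 10 complex IV assembly factors 9 had it, and of the 8 complex III subunits none had. The sites printed here belong to COX17 and to the 5 genes that fell between wt batches in RNA-Seq, with the core in capitals and positions counted from the first base after the stop codon.
COX17, position 77, chrXII:131110-131139, minus strand: tatatactaccTGTAAATAtgtgcgatgca
COX15, position 121, chrV:455029-455058, plus strand: ctacgagaagcTGTAAATAtgaatttcttt
COX10, position 52, chrXVI:224283-224312, minus strand: gtcattaatctTGTAAATAaatatttaaac
COX11, position 2, chrXVI:302619-302638, plus strand: tTGTAAATAcaaagtcattc
ATP25, position 8, chrXIII:460745-460770, minus strand: tattaccTGTATATAatatcttaatc
ATP18, position 64, chrXIII:103901-103930, minus strand: ctacatatgttTGTATATAgaaatatattc
COX17, COX10 and COX11 have a second match each, 32, 92 and 23 bases after the stop. The U-rich run TTTTTTTT, searched in the same bases after the stop codon, followed 21.1% of the 57 genes and 19.9% of all nuclear protein-coding genes. It followed 9 of 36 subunit genes (25%) and 3 of 21 assembly factor genes (14.3%). Among subunits it followed 4 of 8 genes of complex III, 0 of 5 of complex II and 0 of 8 of the stalk and membrane sector. These searches describe letters in a window and not binding.

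In wt cells, subunit genes were expressed at several times the level of assembly factor genes. Levels between genes were compared as normalised CPM per kilobase of coding length. In wt RNA-Seq the median was 213 per kilobase over 36 subunit genes and 43.6 over 21 assembly factor genes, beside 58.1 over 4461 tested genes with a coding length. In wt Ribo-Seq, which has a scale of its own, the medians were 300 for subunits, 26.7 for assembly factors and 36.8 for all. By class, the median wt RNA-Seq level per kilobase was 423 for F1, 311 for the stalk and membrane sector, 213 for complex IV subunits, 172 for complex III subunits and 63.4 for complex II subunits. The assembly factors had medians of 31.8 for the ATP synthase, 42.5 for complex IV and 50.3 for complex II, and CYT2, the heme lyase of cytochrome c1, was at 73.9 ± 7.39 (SD, n = 5).

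The extremes of each class show how far the members of one complex differed in wt RNA-Seq, again per kilobase (SD, n = 5). QCR6, the acidic subunit of complex III, was highest of all at 734 ± 48.4, and RIP1, the Rieske iron-sulfur protein of the same complex, was lowest there at 75.8 ± 16.7. Within F1, ATP15 (epsilon) was at 581 ± 105 and ATP3 (gamma) at 224 ± 37.5. Their libraries did not overlap. In the stalk and membrane sector, ATP18 was at 481 ± 139 and ATP20, subunit g, at 153 ± 28.2. In complex IV, COX13 was at 272 ± 32.6 and COX26 at 4.15 ± 3.20. In complex II, SDH3, a membrane anchor, was at 202 ± 26.4, and SDH9, the minor paralogue of the flavoprotein gene SDH1, at 1.23 ± 0.564. Among assembly factors, COX17, a copper chaperone, was at 120 ± 42.7 and COX18, which helps to export the tail of Cox2, at 21.1 ± 4.06. For complex II, SDH8 was at 105 ± 3.16 and SDH6 at 28.9 ± 11.7. For the ATP synthase, ATP11, an F1 assembly chaperone, was at 67.7 ± 6.26 and ATP10 at 9.48 ± 4.06.

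A gene was tested if it reached 10 CPM in at least 4 libraries of each assay, which 51 of the 57 did: 34 of 36 subunits and 17 of 21 assembly factors. The other 6 were SDH9, COX26, ATP10, ATP22, COX18 and SDH6. ATP22, a translational activator of mitochondrial ATP6, missed the limit in Ribo-Seq alone, with 2.06 to 7.83 CPM in pub1Δ, 4.80 to 8.09 CPM in gir2Δ and 3.25 to 8.86 CPM in wt. In RNA-Seq it was at 37.4 to 56.7 CPM in wt. ATP10 was the opposite case, with 3.78 to 12.7 CPM in wt RNA-Seq and 7.60 to 16.9 CPM in wt Ribo-Seq. COX26 was at most at 2.08 CPM in any RNA-Seq library.

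Footprints were compared with transcripts in wt, a measure of how densely the ribosomes were sampled on each mRNA. Subunit mRNAs carried more footprints for their transcript level than most genes, and assembly factor mRNAs were divided. The quasi-likelihood F-test of edgeR, with batch as a term and Benjamini-Hochberg adjustment over 4473 genes, called 64.5% of all tested genes at an adjusted p under 0.05, 29.2% higher and 35.3% lower in Ribo-Seq. Of the 51 tested genes described here 38 were higher and 5 lower. Among 34 subunits, 31 were higher, 1 was lower and 2 were not called (COX5B and ATP4), with a median log2 change of 0.86. Among 17 assembly factors, 7 were higher, 4 were lower and 6 were not called, with a median of -0.02. The median over all tested genes was -0.09. Medians by class were 1.13 for complex IV subunits, 0.93 for the stalk and membrane sector, 0.81 for complex III subunits, 0.69 for complex II subunits and 0.67 for F1. They were 0.50 for complex II assembly, 0.48 for complex IV assembly and -0.46 for ATP synthase assembly.

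**Figure D1:**
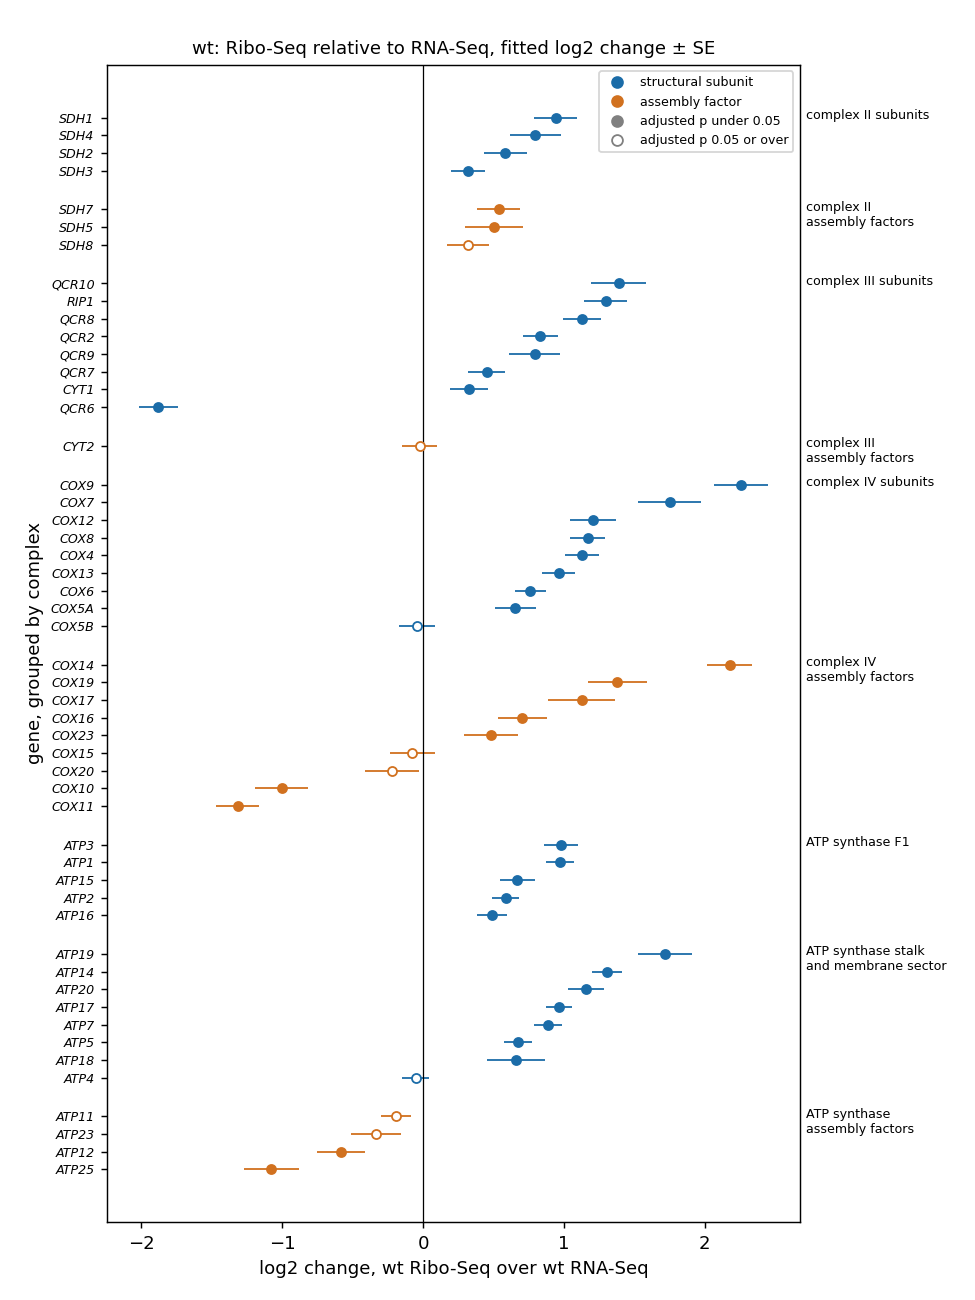
Fitted log2 change of wt Ribo-Seq over wt RNA-Seq (x axis, bars ± SE) for the 51 tested genes (y axis), grouped by complex and coloured by role; filled points had an adjusted p under 0.05. Of the 34 subunits 31 lay to the right of 0 and were called, while QCR6 lay at -1.88, and the assembly factors ran from COX11 at -1.32 to COX14 at 2.18.

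The widest differences lay within single complexes. COX9, a small transmembrane subunit of complex IV, was at 119, 97.2, 81.3 and 112 CPM in wt Ribo-Seq, against 32.0, 23.9, 32.1, 18.8 and 48.3 CPM in wt RNA-Seq. COX14, which couples the synthesis of mitochondrial Cox1 to assembly, was at 60.8, 56.2, 52.0 and 65.8 CPM in wt Ribo-Seq, against 17.9, 20.2, 15.1, 13.7 and 25.8 CPM in wt RNA-Seq. The 2 assays were scaled separately for these CPM values, so the fitted change sets the size: log2 2.26 ± 0.19 (SE) for COX9, with an adjusted p of 6.18e-07, and 2.18 ± 0.16 for COX14, with an adjusted p of 1.59e-07. COX7, another small complex IV subunit, followed at 1.75 ± 0.22 (adjusted p = 1.74e-05).

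QCR6 stood against the rest of complex III. It had 63.1, 75.2, 42.3 and 64.5 CPM in wt Ribo-Seq, against 328, 294, 318, 344 and 347 CPM in wt RNA-Seq, a fitted log2 change of -1.88 ± 0.14 (adjusted p = 1.73e-07 in edgeR). The 7 other complex III subunits were all called higher. COX11, which delivers copper to Cox1, was at -1.32 ± 0.15 (adjusted p = 7.89e-06), and ATP25, which stabilises the mitochondrial ATP9 mRNA, at -1.08 ± 0.20 (adjusted p = 0.000337). Short coding sequences went with high ratios. Spearman's rho of ratio with coding length was -0.575 over the 51 genes, -0.399 over the 34 subunits and -0.885 over the 17 assembly factors, beside -0.231 over 4461 genes. The genes share libraries, and the part of length in the difference between subunits and assembly factors was not tested.

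In the fit with a batch term, footprints of subunit genes in pub1Δ lay below wt as a group and those of assembly factors did not. No single gene passed the test. That fit rested on the only pub1Δ Ribo-Seq library that shared a batch with wt, so many genes below wt do not replicate the strain difference. By library, the subunit medians of the strains overlapped, as described further on. At an adjusted p under 0.05, 0 of the 51 genes were called, beside 0.134% of all tested genes. At an unadjusted p under 0.05 there were 21, namely 20 subunits lower and COX17 higher, beside 5.19% of all genes lower and 2.73% higher (7.91% together). Counting direction alone, 33 of 34 subunits were lower in pub1Δ, with a median log2 change of -0.45, against 8 of 17 assembly factors, with a median of 0.02. The median over all tested genes was -0.02, and 2440 of 4473 were lower. DESeq2 called COX4 and COX9, beside 0.616% of the 1785 genes to which it gave an adjusted p, and without the filter on low counts edgeR called 7 subunits, beside 0.602% of all genes. After ComBat-seq correction, the procedure of the study, it called 24 of the 51 (47.1%), 23 of them subunits that were lower, beside 12.2% of all genes, 6.66% lower.

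**Figure D2:**
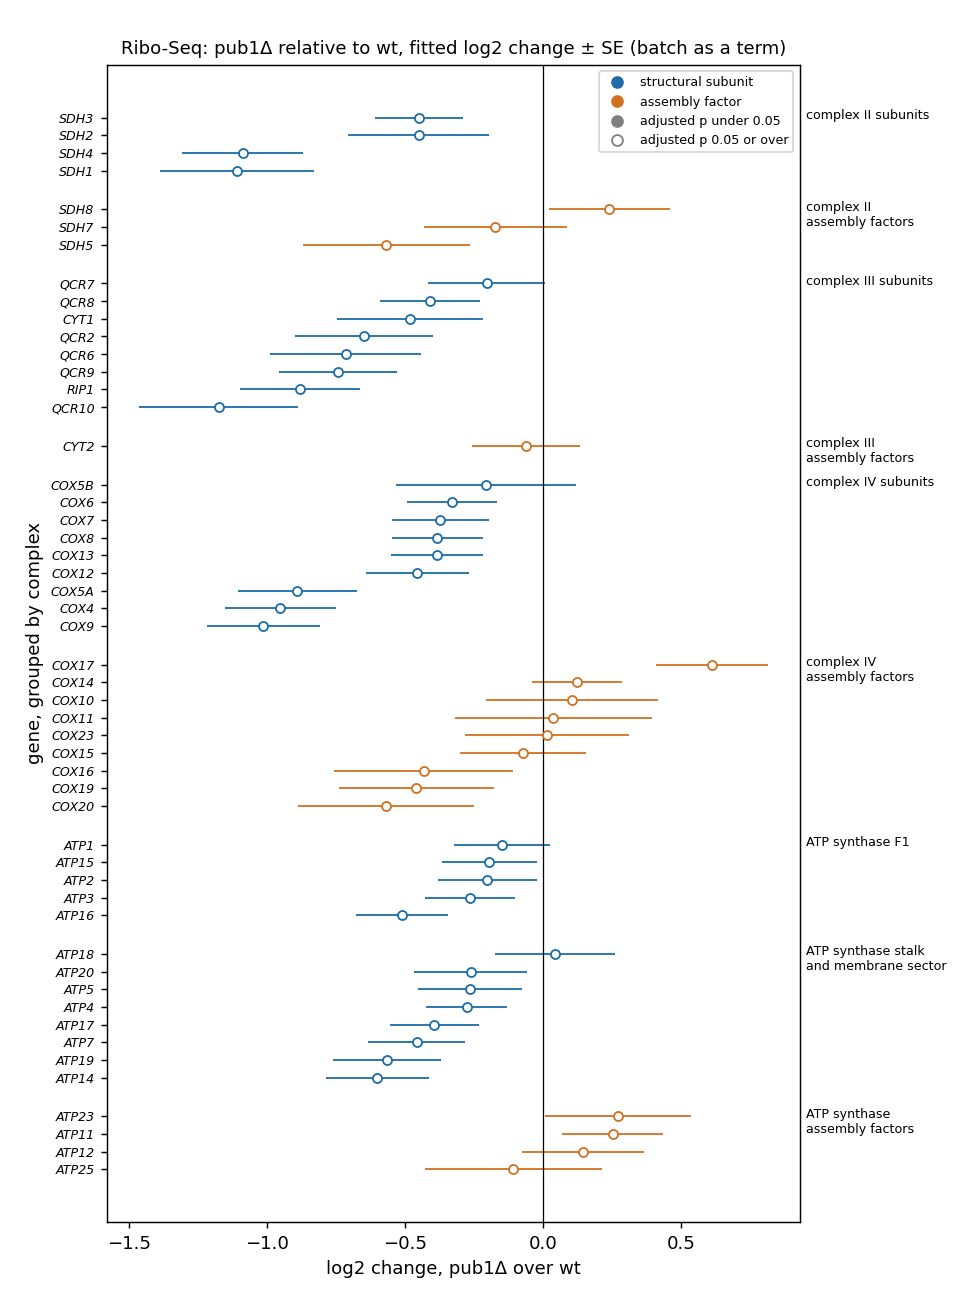
Fitted log2 change of pub1Δ over wt in Ribo-Seq (x axis, bars ± SE) for the 51 tested genes (y axis), grouped by complex; open points had an adjusted p of 0.05 or over. Of the 34 subunits 33 lay left of 0, with QCR10 farthest at -1.17, and COX17 lay farthest right at 0.61. The fit rested on the only pub1Δ Ribo-Seq library that shared a batch with wt.

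In the same fit, the complexes differed in how far they lay from wt. Median log2 changes in pub1Δ Ribo-Seq were -0.77 for the 4 tested complex II subunits, -0.68 for the 8 complex III subunits, -0.38 for the 9 complex IV subunits, -0.33 for the stalk and membrane sector and -0.20 for F1. ATP18 alone among the subunits was positive, at 0.05. The assembly factors of the same complexes had medians of -0.17 for complex II, 0.02 for complex IV and 0.20 for the ATP synthase. The difference between complexes was not tested.

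SDH4, a membrane anchor of complex II, was at 35.6, 35.1, 44.5 and 34.5 CPM in pub1Δ Ribo-Seq, against 72.4, 69.1, 47.5 and 74.2 CPM in wt (log2 change -1.09 ± 0.22 SE, adjusted p = 0.0732 in edgeR). COX9 was at 38.6, 47.4, 58.8 and 57.3 CPM in pub1Δ, against 119, 97.2, 81.3 and 112 CPM in wt (-1.01 ± 0.20, adjusted p = 0.0732). COX4, the zinc-binding subunit of complex IV, was at 62.3, 82.5, 90.8 and 84.9 CPM in pub1Δ, against 161, 136, 131 and 167 CPM in wt (-0.95 ± 0.20, adjusted p = 0.0933). In each of these genes all 4 pub1Δ libraries lay below all 4 wt libraries.

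RIP1 and QCR10, a small subunit next to the Rieske protein, did the same. RIP1 was at 46.0, 44.3, 71.2 and 43.5 CPM in pub1Δ Ribo-Seq, against 80.2, 102, 77.4 and 80.1 CPM in wt. QCR10 was at 16.3, 30.9, 41.0 and 27.2 CPM in pub1Δ, against 60.8, 68.4, 42.3 and 62.4 CPM in wt, and had the most negative fitted change, -1.17 ± 0.29 (adjusted p = 0.136 in edgeR). These 5 genes were 9.80% of the 51 tested, where 2.37% of all tested genes had every pub1Δ library below the wt range. ATP12, an F1 assembly chaperone, was the 1 gene above it in every pub1Δ library, where 1.74% of all genes were above. SDH1, the flavoprotein of complex II, had a fitted change of -1.11 ± 0.28 (adjusted p = 0.140), but its groups overlapped, with 37.1, 45.4, 62.4 and 43.2 CPM in pub1Δ, against 92.9, 68.4, 44.2 and 93.6 CPM in wt. At the other end, COX17 was at 62.3, 44.3, 42.8 and 55.8 CPM in pub1Δ, against 36.6, 48.6, 33.8 and 36.3 CPM in wt (0.61 ± 0.20, adjusted p = 0.403).

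Batches and single libraries weighed heavily on this result. Within batch 1, pub1Δ replicate 4 had 33 of 34 subunits below the mean of the wt libraries, with a median of -0.45. Set against the wt libraries of batch 4, the 3 pub1Δ libraries of batch 3 had 20 of 34 subunits below, with a median of -0.02, and 5 of 17 assembly factors below, with a median of 0.25. COX9, COX4 and SDH4 had to be lower in that pairing, since all their pub1Δ libraries lay below all wt libraries. Their differences were -0.89, -0.77 and -0.57 on the log2 scale. Without a batch term the median of the subunits was -0.20. By library, the subunit median relative to the wt libraries of batch 1 was -0.43, -0.41, -0.03 and -0.45 in pub1Δ replicates 1 to 4, against 0.02, -0.05, -0.41 and -0.02 in wt replicates 1 to 4. So 1 pub1Δ library, replicate 3, stood with the higher wt libraries, and 1 wt library, replicate 3 of batch 4, stood with the lower pub1Δ libraries. With wt replicate 2 or wt replicate 3 left out, COX5A and SDH4 were called lower, beside 0.201% of all genes. With gir2Δ replicate 1 left out, COX9 was called, beside 0.156% of all genes, and with gir2Δ replicate 3 left out COX4, COX9, SDH1 and SDH4 were called, beside 0.492%.

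Among the pub1Δ and wt Ribo-Seq libraries, HXK1, from a list of 18 glucose-repressed genes, moved with the subunit median. HXK1, a hexokinase gene repressed by glucose, was at 129, 131, 422 and 93.0 CPM in pub1Δ Ribo-Seq, against 288, 241, 84.6 and 295 CPM in wt. Replicate 3 was highest in pub1Δ and lowest in wt, as it was for the subunit median. HSP12, also of that list, was at 5.94, 7.22, 135 and 1.25 CPM in pub1Δ, against 25.8, 18.2, 18.2 and 24.9 CPM in wt. For HSP12, wt replicate 3 did not stand apart from replicate 2. The summed level of 18 listed glucose-repressed genes was 390 to 1053 CPM in pub1Δ, 310 to 479 CPM in gir2Δ and 349 to 746 CPM in wt, of which 4 genes were expressed enough to be tested and 0 to 5 were at 0 in a library. The 4 tested ones (HXK1, GLK1, MDH2 and HSP12) had a median fitted change of -1.13 in pub1Δ Ribo-Seq, with 0 called. In gir2Δ Ribo-Seq HXK1 was at 106, 198, 152 and 141 CPM. There all 4 of these genes had a negative fitted change, with a median of -0.81, beside a median of 0.01 over subunits. The part of glucose-repressed genes in the result was not tested.

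**Figure D3:**
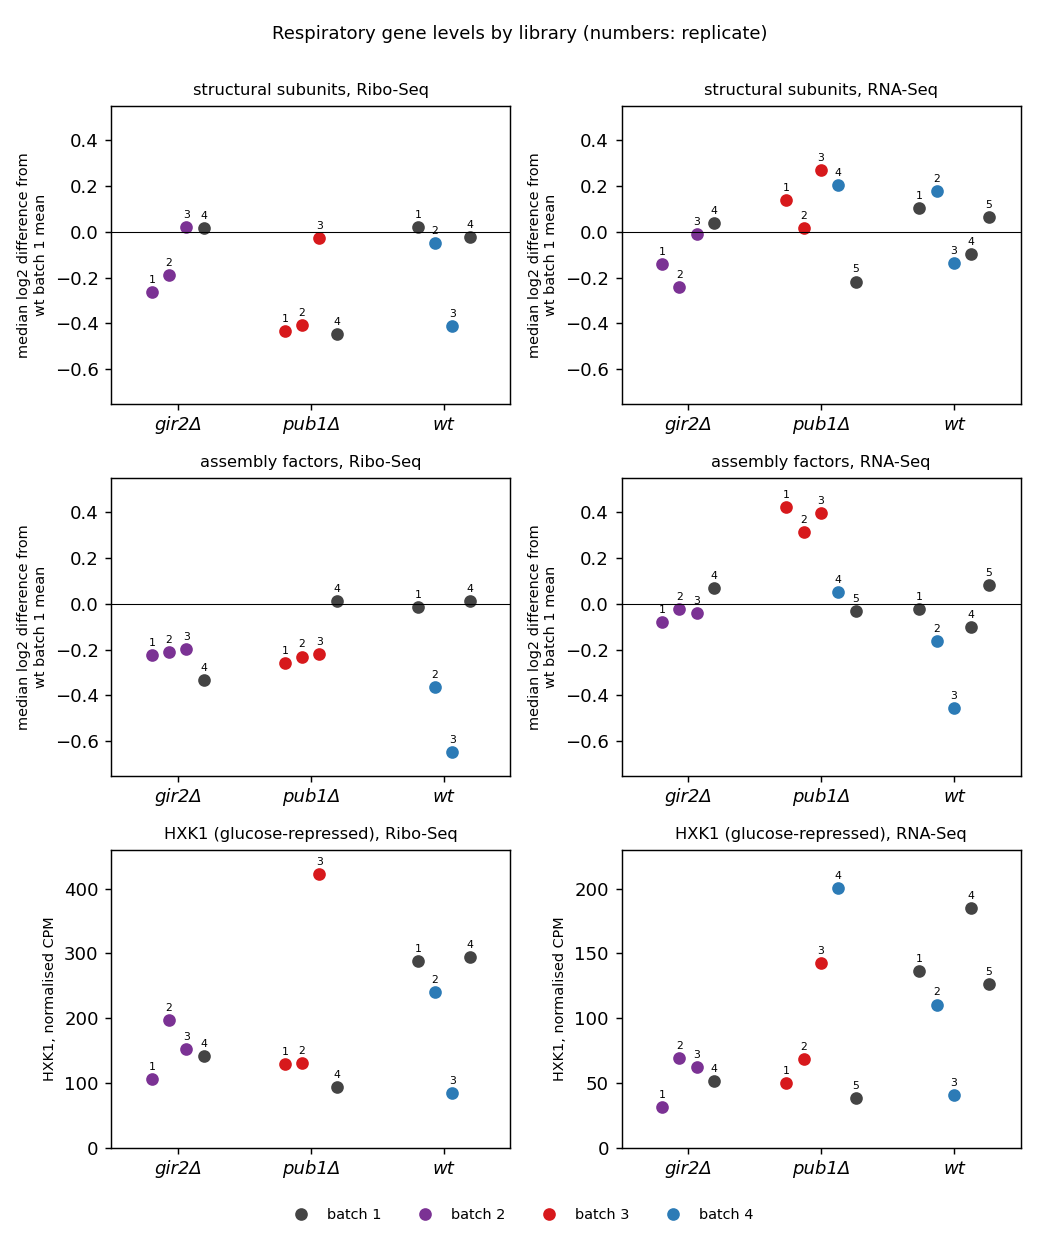
Each point is 1 library, numbered by replicate and coloured by batch: the median log2 difference from the wt batch 1 mean over 34 subunits (top) and 17 assembly factors (middle), and HXK1 in normalised CPM (bottom), for Ribo-Seq (left) and RNA-Seq (right). In Ribo-Seq, pub1Δ replicate 3 lay at -0.03 and wt replicate 3 at -0.41, each away from the other 3 libraries of its strain.

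In RNA-Seq of pub1Δ the fitted changes of the subunits centred near 0. No gene of the 51 was called, beside 0.0447% of all tested genes, 7 had an unadjusted p under 0.05 (9.39% of all genes), and the fitted median was -0.01 over subunits and 0.11 over assembly factors. RIP1 had the most negative change, with 36.7, 40.8, 47.7, 44.9 and 25.5 CPM in pub1Δ, against 51.2, 66.4, 37.6, 44.9 and 45.4 CPM in wt (-0.54 ± 0.21, adjusted p = 0.423 in edgeR). COX19, a copper-binding assembly factor of the intermembrane space, had the most positive, with 7.74, 18.7, 14.4, 21.3 and 11.5 CPM in pub1Δ, against 11.8, 10.9, 8.70, 15.8 and 9.34 CPM in wt (0.50 ± 0.34, adjusted p = 0.685). In both genes the groups overlapped. The 2 batches that hold both strains gave opposite directions. In batch 1, pub1Δ replicate 5 had 28 of 34 subunits below wt, with a median of -0.22. In batch 4, pub1Δ replicate 4 had 29 of 34 subunits above wt, with a median of 0.26. Leaving out replicate 4 or replicate 5 moved the subunit median to -0.22 or 0.25, and without replicate 4 COX19 was at -0.09.

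Ribosome occupancy, the Ribo-Seq change relative to the RNA-Seq change, was negative in the fit for each of the 34 tested subunits in pub1Δ. The batches of the 2 sides were not matched. The Ribo-Seq side rested on replicate 4 of batch 1 alone, and the RNA-Seq side on replicate 5 of batch 1 and replicate 4 of batch 4. Their median was -0.48 (range -0.85 to -0.08), against -0.05 for the 17 assembly factors and 0.01 for all tested genes. The test of the interaction of strain and assay called 0 of 51 genes, beside 0% of all genes, and 8 subunits had an unadjusted p under 0.05, all lower, beside 3.76% of all genes, 1.81% lower. The subunit medians lay close together, at -0.51 for complex IV, -0.50 for complex II, -0.49 for complex III, -0.42 for the stalk and membrane sector and -0.27 for F1. COX19 had the most negative value, -0.94 ± 0.50 SE, and ATP11 the most positive, 0.22 ± 0.19, both with an adjusted p of 1.00 in edgeR. Without pub1Δ RNA-Seq replicate 5 the subunit median was -0.72, and without replicate 4 it was -0.20. The latter value takes both sides from batch 1. ATP11 was at -0.08 without a batch term. After ComBat-seq correction 8 of the 51 genes (15.7%) were called, all of them subunits that were lower, beside 2.5% of all genes.

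COX5A and COX5B encode alternative forms of one complex IV subunit, of which COX5A is used under aerobic conditions and COX5B when oxygen is low. In wt RNA-Seq, COX5A was at 224 ± 24.2 and COX5B at 112 ± 15.4 per kilobase (SD, n = 5). In wt Ribo-Seq, COX5A was at 244 ± 63.6 and COX5B at 74.6 ± 13.1 per kilobase (SD, n = 4). COX5B transcripts were at 83.7, 104, 130, 81.4 and 57.7 CPM in pub1Δ, against 53.0, 54.6, 39.4, 50.1 and 57.6 CPM in wt, and at 39.1, 51.6, 45.2 and 48.4 CPM in gir2Δ. Every pub1Δ library was above the wt range, replicate 5 by the smallest margin; 2.97% of all tested genes were above in this way. The fitted change, which rests on replicates 4 and 5, was 0.43 ± 0.18 (adjusted p = 0.469), and COX5B was the 1 gene of the 51 called without a batch term, beside 0.805% of all genes. COX5A transcripts were at 91.7, 92.1, 100, 102 and 65.8 CPM in pub1Δ, against 94.6, 122, 96.2, 99.7 and 104 CPM in wt (-0.35 ± 0.13, adjusted p = 0.403). In Ribo-Seq, COX5A was at 75.7, 87.6, 85.5 and 71.4 CPM in pub1Δ, against 135, 116, 70.3 and 130 CPM in wt (-0.89 ± 0.21, adjusted p = 0.131), and COX5B was at 46.0, 23.7, 62.4 and 33.2 CPM in pub1Δ, against 35.8, 32.7, 26.7 and 40.9 CPM in wt.

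In gir2Δ transcripts the fitted changes also centred near 0. In RNA-Seq 0 of 51 genes were called, beside 0.0671% of all tested genes, and 3 had an unadjusted p under 0.05, beside 14% of all genes. The medians were 0.06 for subunits and 0.05 for assembly factors. ATP23, a protease that processes mitochondrial Atp6, was at 46.4, 40.1, 43.1 and 54.1 CPM in gir2Δ, against 35.5, 27.3, 43.0, 29.9 and 41.5 CPM in wt (0.55 ± 0.20, adjusted p = 0.246 in edgeR). SDH1 was at 27.5, 31.7, 45.2 and 40.4 CPM in gir2Δ, against 56.5, 66.0, 42.1, 58.2 and 60.5 CPM in wt (-0.46 ± 0.27, adjusted p = 0.433). For both, 1 library kept the groups from separating. ATP11 had every gir2Δ library above the wt range, though barely so for replicates 1 and 3, at 73.9, 79.2, 73.9 and 82.9 CPM, against 63.5, 59.2, 60.0, 67.6 and 73.7 CPM in wt, as did 2.3% of all genes.

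In gir2Δ Ribo-Seq the assembly factors, and not the subunits, lay below wt in the fitted values. Again 0 of 51 genes were called, beside 0.0224% of all genes, and 4 had an unadjusted p under 0.05, beside 8.43% of all genes. The median log2 change was 0.01 over subunits, with 17 of 34 negative, and -0.34 over assembly factors, with 14 of 17 negative, including all 9 of complex IV. The median over all tested genes was -0.04, and 2508 of 4473 were negative. COX20, a chaperone of Cox2, had the most negative value, -1.46 ± 0.45 (adjusted p = 0.427), with replicate 4 apart from the other libraries: gir2Δ had 17.1, 18.5, 17.0 and 7.38 CPM, against 17.9, 14.4, 10.4 and 23.2 CPM in wt. The lowest of these was replicate 4, on which the fit rests. For COX20 the count without regard to strand was 61.7% of the sense count in Ribo-Seq and 28.4% in RNA-Seq, and why it was lower was not tested. COX5B was likewise at -1.37 ± 0.46 (adjusted p = 0.481), with 15.5, 31.3, 26.8 and 14.8 CPM in gir2Δ, against 35.8, 32.7, 26.7 and 40.9 CPM in wt. COX14 was below the wt range in all 4 gir2Δ libraries, as were 3.73% of all genes, with 39.5, 41.5, 35.4 and 44.9 CPM in gir2Δ, against 60.8, 56.2, 52.0 and 65.8 CPM in wt. QCR10 had the most positive value, 0.34 ± 0.28 (adjusted p = 0.795), with 54.98, 68.3, 83.0 and 77.8 CPM in gir2Δ.

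By library, the assembly factor median in gir2Δ Ribo-Seq was -0.22, -0.21, -0.20 and -0.33 in replicates 1 to 4, against -0.01, -0.36, -0.65 and 0.01 in wt replicates 1 to 4. All 4 gir2Δ libraries thus lay inside the range of wt, below its batch 1 libraries and above those of batch 4. Ribosome occupancy in gir2Δ had medians of -0.44 over assembly factors and -0.05 over subunits, with 0 of 51 genes called, beside 0% of all genes, and 3 at an unadjusted p under 0.05, beside 7.6% of all genes. The extremes were COX20 at -1.76 ± 0.55 (adjusted p = 0.371) and QCR10 at 0.75 ± 0.46 (adjusted p = 0.734).

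Within wt itself, batch 4 was compared with batch 1, a difference with no change of strain. The share of the 51 genes that fell was below that of all genes in RNA-Seq and close to it in Ribo-Seq, and 0 of them rose. In RNA-Seq, with 2 libraries of batch 4 and 3 of batch 1, edgeR called 5 of 51 genes (9.8%), all lower, where 30.3% of all tested genes were called, 20.1% lower and 10.2% higher. In Ribo-Seq, with 2 libraries in each batch, 10 of 51 (19.6%) were called, all lower, where 31.1% of all genes were called, 20% lower and 11.2% higher. In each assay 4 of the 17 tested assembly factors (23.5%) were called, a share close to that of all genes that were lower. Of the 34 subunits 1 (2.94%) was called for transcripts and 6 (17.6%) for footprints. The median change of transcripts was -0.31 over assembly factors and -0.06 over subunits, beside -0.03 over all genes. That of footprints was -0.62 over assembly factors and -0.23 over subunits, beside -0.01 over all genes.

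COX15, which makes heme A for complex IV, differed most. It had 36.1 and 36.6 CPM in batch 4 of wt RNA-Seq, against 101, 113 and 90.5 CPM in batch 1 (log2 change -1.53 ± 0.15 SE, adjusted p = 3.48e-07 in edgeR). Its footprints were at 20.5 and 11.1 CPM in batch 4, against 78.4 and 83.9 CPM in batch 1 (-2.38 ± 0.22, adjusted p = 7.68e-06). The same order held across strains. In pub1Δ RNA-Seq COX15 was at 32.1, 42.2 and 34.9 CPM in batch 3 and 53.4 CPM in batch 4, against 78.7 CPM in batch 1, and in gir2Δ RNA-Seq it was at 74.8 to 88.0 CPM in batches 1 and 2. In Ribo-Seq it was at 5.94, 25.8 and 12.5 CPM in batch 3 of pub1Δ, against 77.0 CPM in batch 1. No library of batch 3 or 4 reached the lowest of batch 1 or 2 in either assay.

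**Figure D4:**
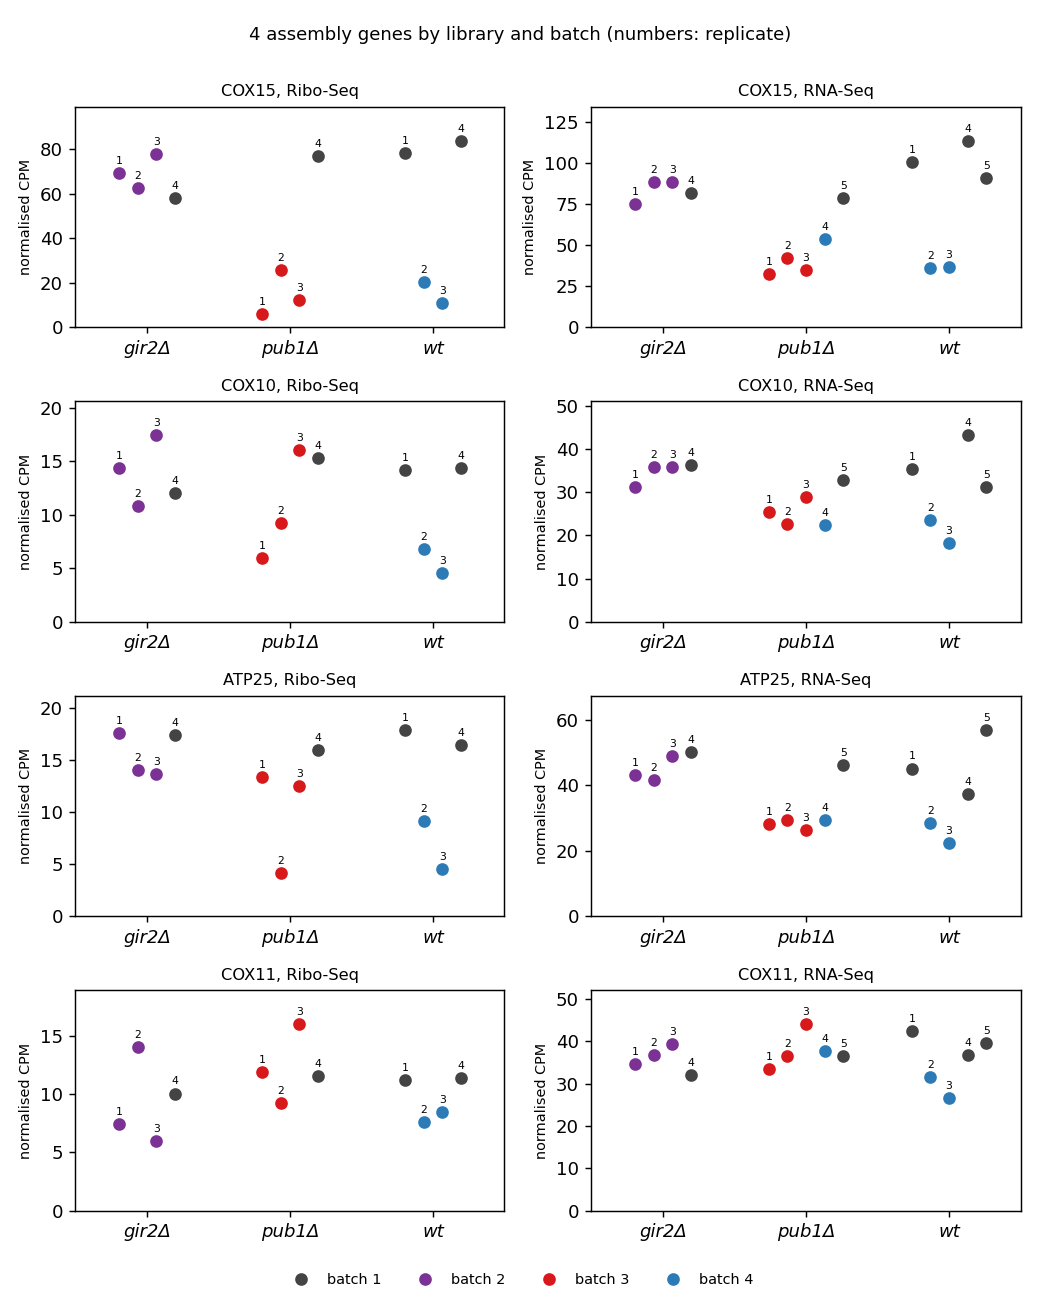
Normalised CPM of COX15, COX10, ATP25 and COX11 (y axes, from 0) in every library of Ribo-Seq (left) and RNA-Seq (right), by strain (x axis), coloured by batch and numbered by replicate. For COX15 the batches 3 and 4 lay at 5.94 to 25.8 CPM in Ribo-Seq, against 58.3 to 83.9 CPM in batches 1 and 2.

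COX10, which makes heme O, the precursor that Cox15 uses, followed. It was at 23.5 and 18.3 CPM in batch 4 of wt RNA-Seq, against 35.5, 43.2 and 31.2 CPM in batch 1 (-0.84 ± 0.21, adjusted p = 0.00543), and at 6.84 and 4.55 CPM in batch 4 of wt Ribo-Seq, against 14.2 and 14.3 CPM in batch 1 (-1.33 ± 0.34, adjusted p = 0.0126). ATP25 was at 28.6 and 22.4 CPM in batch 4 of RNA-Seq, against 45.1, 37.2 and 57.0 CPM in batch 1 (-0.93 ± 0.21, adjusted p = 0.00252), and at 9.12 and 4.55 CPM in batch 4 of Ribo-Seq, against 17.9 and 16.4 CPM in batch 1 (-1.36 ± 0.34, adjusted p = 0.0118). In these values the batches did not overlap. ATP18 (-0.55 ± 0.20, adjusted p = 0.0441) and COX11 (-0.50 ± 0.18, adjusted p = 0.0423) were called in RNA-Seq only. The batches overlapped for ATP18 and lay close for COX11, with 61.8 and 77.9 CPM of ATP18 in batch 4, against 103, 68.9 and 122 CPM in batch 1, and 31.5 and 26.6 CPM of COX11 in batch 4, against 42.5, 36.8 and 39.6 CPM in batch 1. The other genes called in Ribo-Seq were ATP12, ATP15, COX5A, CYT1, QCR8, SDH1 and SDH3, with changes of -0.78 to -0.40.

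The number of calls turned on single libraries. In RNA-Seq it was 3 without replicate 1, 3 or 5, 6 without replicate 2 and 13 without replicate 4, and COX15 and ATP25 were called in each case, while ATP18 and COX11 held only without replicate 4, and COX10 was not called without replicate 3. Of the 3 genes called without replicate 3 QCR2 was higher in batch 4. In Ribo-Seq it was 2 without replicate 1 or 4, 4 without replicate 3 and 26 without replicate 2, and only COX15 was called each time. Of the 4 called without replicate 3 ATP5 was higher in batch 4. A TGTANATA after the stop codon was held by 5 of the 5 genes called in RNA-Seq and by 5 of the 10 called in Ribo-Seq. Of the 22 tested genes of the 51 that hold one, 5 (22.7%) were called lower in each assay, though not the same 5. Of the 29 that hold none, 0 were called lower in RNA-Seq and 5 (17.2%) in Ribo-Seq. Over all 756 tested genes with that match 21.6% were called lower in RNA-Seq and 18.8% in Ribo-Seq, against 19.9% and 20.3% of 3705 genes without it. For these 2 batches, what differed besides the batch name is not given in the sources used here, and batch 4 libraries were few.

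The other genes of the pathway, a list of 68 with cytochrome c, dehydrogenases, carriers, further assembly factors, mitochondrial translation activators and the Hap regulators, were counted beside these. Of the 48 tested, 0 were called in any comparison of gir2Δ or pub1Δ with wt. In pub1Δ Ribo-Seq their median was -0.07, with 27 negative, and in pub1Δ occupancy it was -0.19, with 30 negative. In gir2Δ Ribo-Seq it was -0.18, with 29 negative. Between wt batches 9 of the 48 (18.8%) fell in RNA-Seq and 8 (16.7%) in Ribo-Seq, where 20.1% and 20% of all genes fell, and 0 rose in either assay. In wt Ribo-Seq relative to RNA-Seq, 14 were higher and 14 lower (29.2% each), beside 29.2% and 35.3% of all genes, with a median of 0.06.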

How the data were processed

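RNA-Seq and Ribo-Seq were carried out on gir2Δ, pub1Δ and wt yeast, from lysates that were split between the assays. The authors trimmed reads with cutadapt 2.10, removed rRNA with Bowtie2 1.2.3, collapsed identical Ribo-Seq reads before cutting off their barcodes, aligned with STAR 2.7.9a and deposited raw gene-sense counts on the R64 annotation. Ribo-Seq counts are thus closer to molecules than RNA-Seq counts, in which copies from PCR remain. For each of the 26 libraries the table column equalled the library's own file. Groups and batches were taken from the labels.

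edgeR 4.0.16 (glmQLFTest, in R 4.3.3) tested the counts, with TMM factors, batch as a term and Benjamini-Hochberg adjustment over 4473 genes with at least 10 CPM in at least 4 libraries of each assay. Ribosome occupancy was the interaction of strain and assay in one model of 26 libraries. Levels are CPM of the tested-gene counts, scaled within each assay. Per-library log2 values had 0.5 counts added. Alternatives were DESeq2 1.42.0, median-of-ratios factors, no filter, 30 CPM, no batch term, ComBat-seq (sva 3.50.0), batch as 2 levels, a replicate block and each library left out. In occupancy the block was instead libraries of the same strain, batch and number, fitted with limma 3.58.1. ComBat-seq output was tested as if the correction had used no degrees of freedom. Scripts were tested on simulated data. wt RNA-Seq and Ribo-Seq libraries of one number share a batch and deviated together (r = 0.745 to 0.768). Batch was not removed from these deviations, so they cannot show whether such libraries are pairs. The sources used here do not say that libraries of one number came from one lysate.

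The genes named were those called in a comparison (where over 6 were called, the 3 with the largest change in each direction), the most positive and the most negative where none was called, COX5A and COX5B, the highest and lowest of each class per kilobase in wt RNA-Seq, and those that missed the filter. SDH1, SDH4, COX4, COX9, RIP1 and ATP12 in pub1Δ Ribo-Seq, ATP11, COX5B and COX14 in gir2Δ, and the genes named as called in an alternative were chosen after their values were seen. HXK1 and the other glucose-repressed genes were named outside this rule. The members and lists were chosen with earlier results of these data known. Sequences are from RefSeq R64.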

Additional observations from a re-analysis of the deposited data

Results flagged for a closer look

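A sample that lay far from the others of its group was looked for in 168 groups of 4 or 5 libraries, by the gap to the nearest other value as a share of the range (Dixon's ratio). There were 12 such samples, where chance gives about 1 in 20 groups. In Ribo-Seq, the median of the structural subunits was -0.02882 in pub1Δ replicate 3 and -0.4113 in wt replicate 3 (log2, relative to the wt libraries of batch 1), each far from the other 3 libraries of its strain. The median of the assembly factors was 0.01099 in pub1Δ Ribo-Seq replicate 4, above the other 3. RIP1 was at 71.25 CPM in pub1Δ Ribo-Seq replicate 3 and at 102.5 CPM in wt Ribo-Seq replicate 2, each the highest of its group.

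In pub1Δ RNA-Seq, replicate 5 was apart from the others for ATP25, at 46.2 CPM, for ATP3, at 169.3 CPM, and for COX5A, at 65.79 CPM. It was the 1 pub1Δ RNA-Seq library of batch 1. ATP23 was lowest in pub1Δ RNA-Seq replicate 4, at 35.7 CPM, and in wt Ribo-Seq replicate 4, at 17.71 CPM. COX10 was lowest in gir2Δ RNA-Seq replicate 1, at 31.25 CPM, and COX20 in gir2Δ Ribo-Seq replicate 4, at 7.376 CPM. That last library was the 1 on which the fitted gir2Δ change of COX20 rested.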

How the results depend on the processing

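ComBat-seq correction moved the number of the 51 genes called to 9 for gir2Δ transcripts, 14 for gir2Δ footprints, 9 for gir2Δ occupancy, 8 for pub1Δ transcripts, 24 for pub1Δ footprints and 8 for pub1Δ occupancy, against 0 in each with batch as a term; it treats corrected counts as observed ones. In the order given, 17.6%, 27.5%, 17.6%, 15.7%, 47.1% and 15.7% of the 51 were called, against 33.9%, 25.4%, 22.6%, 11%, 12.2% and 2.5% of all tested genes, so the gir2Δ shares were near or below those of all genes. With batch as 2 levels, 6 were called for pub1Δ footprints, 2 for pub1Δ transcripts and 1 for gir2Δ footprints, beside 1.68%, 3.02% and 0.0894% of all genes. Without a batch term there was 1 in pub1Δ RNA-Seq, beside 0.805% of all genes. In pub1Δ Ribo-Seq DESeq2 called 2 and the fit without a filter 7, beside 0.616% and 0.602% of all genes. Between wt batches, DESeq2 called 3 of the 51 (5.88%) for transcripts and 2 (3.92%) for footprints. The filter at 30 CPM left 2 of the 39 genes it tested (5.13%) in RNA-Seq. Over all genes, the alternatives, which differ in the genes tested, called 985 to 1598 in RNA-Seq and 940 to 1706 in Ribo-Seq. The cause of these shifts was not tested.

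Medians over subunits moved without a batch term to -0.11 in gir2Δ RNA-Seq and -0.20 in pub1Δ Ribo-Seq, and with batch as 2 levels to -0.22 in pub1Δ Ribo-Seq. Medians over assembly factors moved without a batch term to -0.12 in gir2Δ Ribo-Seq, -0.27 in gir2Δ occupancy and 0.31 in pub1Δ RNA-Seq, and with batch as 2 levels to -0.24 for gir2Δ footprints, 0.31 for pub1Δ transcripts and -0.19 for pub1Δ occupancy. With the filter at 30 CPM, which tests fewer of them, they were -0.27 in gir2Δ occupancy, 0.26 in pub1Δ Ribo-Seq, -0.33 between wt batches in Ribo-Seq and -0.24 in wt Ribo-Seq relative to RNA-Seq. ATP11 in pub1Δ occupancy turned to -0.084 without a batch term and -0.053 with batch as 2 levels.

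With 1 library left out, calls ranged from 0 to 4 in pub1Δ Ribo-Seq, from 3 to 13 between wt batches in RNA-Seq and from 2 to 26 in Ribo-Seq. Subunit medians ranged from -0.22 to 0.25 in pub1Δ RNA-Seq, from -0.72 to -0.20 in pub1Δ occupancy and from -0.21 to 0.10 between wt batches in RNA-Seq. Assembly factor medians ranged from -0.38 to -0.25 in gir2Δ Ribo-Seq, from -0.085 to 0.22 for pub1Δ transcripts, from -0.21 to 0.070 in pub1Δ occupancy, and between wt batches from -0.52 to -0.26 in RNA-Seq and from -0.67 to -0.40 in Ribo-Seq. COX19 in pub1Δ RNA-Seq ranged from -0.085 to 1.10. Without gir2Δ replicate 4, or pub1Δ Ribo-Seq replicate 4, the strain effect could not be fitted beside batch.

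Whether replicate numbers pair the strains could not be told, since batch was not removed from the deviations compared. Same-numbered libraries gave r of -0.168 to 0.021 (transcripts) and -0.092 to -0.012 (footprints) for gir2Δ and wt. For pub1Δ and wt they gave -0.460 to 0.787 and -0.592 to 0.891. The highest values came from libraries that share batch 1, replicate 5 in RNA-Seq and replicate 4 in Ribo-Seq. Replicate 4 of gir2Δ and wt, which also share batch 1, gave -0.013 and -0.029. A replicate block, run for transcripts and footprints and not for occupancy, gave 0 calls among the 51 in each strain comparison. It moved the assembly factor median in gir2Δ RNA-Seq to -0.054. In occupancy, a block of libraries of the same strain, batch and number gave 0 calls among the 51. The replicate block left 40 of the 51 genes called (78.4%) in wt Ribo-Seq relative to RNA-Seq. Over all genes, the alternatives called 1991 to 4027 there, against 2885 (64.5%) with batch as a term. No paired analysis was possible between wt batches because they share no replicate number. Ribo-Seq depth, at 540986 to 3123180 counts, limits the assembly factors most, many of which had under 20 CPM.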
